A study of Mus musculus with 6 samples.

Results

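The genes described here are 10 antioxidant genes, most of them targets of the transcription factor Nrf2: Hmox1, Nqo1, Gclc, Gclm, Slc7a11, Txnrd1, Prdx1, Srxn1, Sod2 and Sqstm1. They were found by gene symbol in a table of counts on 3′ UTR regions, where they hold 50 transcripts and 52 regions, out of 55254 genes, 142567 transcripts and 177303 regions in all. The counts of a transcript's regions were summed, and the transcript with the most reads on average stood for its gene. The question was whether these genes differ in LPS-activated macrophages whose Hnrnpd gene lacks exons 3 and 4. AUF1, the product of Hnrnpd, is an RNA-binding protein that attaches to AU-rich elements in 3′ UTRs.

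Bone marrow-derived macrophages (BMDMs) were grown from C57BL/6J mice aged 6 to 8 weeks, over 10 days in medium conditioned by L929 cells. The control group, hnRNPDfl/fl, carried floxed alleles around exons 3 and 4 and no Cre. The M-Δx3,4 group, LysCre+hnRNPDfl/fl, carried the same floxed alleles with Cre expressed from the lysozyme M locus, which is active in myeloid cells, so that the deletion is limited to cells that express this locus. All 6 libraries, 3 per group, came from BMDMs given 100 ng/ml LPS for 4 hours. No unstimulated macrophages were analysed here, so the response to LPS itself was not measured. Nothing in the labels says whether the libraries of a group came from separate mice, and p-values then measure the spread between these libraries, which may be technical.

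Nrf2 (Nfe2l2) is held in the cytoplasm and marked for degradation by Keap1. Oxidants and electrophiles modify Keap1, whereupon Nrf2 accumulates, pairs with a small Maf protein and binds antioxidant response elements upstream of genes for glutathione synthesis, thioredoxin recycling, heme breakdown and quinone reduction. In macrophages these enzymes limit the oxidants that the cells make during activation, and LPS is also known to raise Sod2 through NF-κB.

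No antioxidant gene of the set differed between the M-Δx3,4 and control macrophages beyond the spread between libraries. The threshold asked for a p under 0.05 before adjustment, from the quasi-likelihood test of edgeR, together with a log2 fold change of at least 1 in either direction, and 0 of the 9 genes with enough counts to be tested passed it. Over 11872 genes tested, 1 transcript each, 3.07% passed this threshold. The unadjusted p alone was under 0.05 for 0 of the 9 genes, against 3.98% of all genes. The smallest unadjusted edgeR p in the set was 0.214, for Gclc, and the edgeR adjusted p-values of the 9 genes ran from 0.984 to 0.998. The control and M-Δx3,4 libraries overlapped for all 9 genes, whereas they did not overlap for 8.44% of genes in the table. Between all 6 libraries, no transcript in the table reached an adjusted p under 0.05, the smallest edgeR adjusted p being 0.824, and 1071 of 32475 transcripts passed the unadjusted threshold. DESeq2 and limma-voom also called 0 of the genes in the set. Control 1 weighed on the calls: without it 3224 transcripts passed, and 1 of the 9 tested genes of the set, Slc7a11, was among them. The share of all transcripts that passed in that fit was not computed, so this call is not read as a trait of the set. In bulk RNA such as this, fewer cells of a type and less RNA per cell cannot be told apart.

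The log2 fold change, M-Δx3,4 minus control, was above 0 for 6 genes and below 0 for 3, with a median of 0.14 against -0.01 over all genes tested. The median size of the difference, regardless of sign, was 0.14 on the log2 scale in the set and 0.36 over all genes. All genes include those with few counts, and they were not matched to the set by level. The 2 medians thus do not show that the set changed less than other genes of its level. For 7 of the 9 genes the 95% interval of the log2 fold change lay inside -1 to 1, that is, within a doubling or a halving of the count. Gclc and Slc7a11 were the exceptions. Hmox1 was counted as inside, but its upper limit was 1.0 after rounding, at the edge of a doubling. In these tallies Gclm stands by a region inside an intron, described below, that cannot be read as Gclm. With the last exon of its coding transcript in its place, 7 genes lay above 0 and 2 below, the median was 0.17, and 6 of the 9 intervals lay inside -1 to 1. In the controls and in the M-Δx3,4 libraries alike, the ratio of the highest to the lowest library was larger than the ratio of the group means for 9 of the 9 genes. This sets a ratio of extremes against a ratio of means, and the share over all genes was not computed. The count therefore does not decide whether the groups differ. The smallest two-sided p that an exact permutation test can give for 3 libraries against 3 is 0.1, and the smallest in the set was 0.4.

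**Figure D1:**
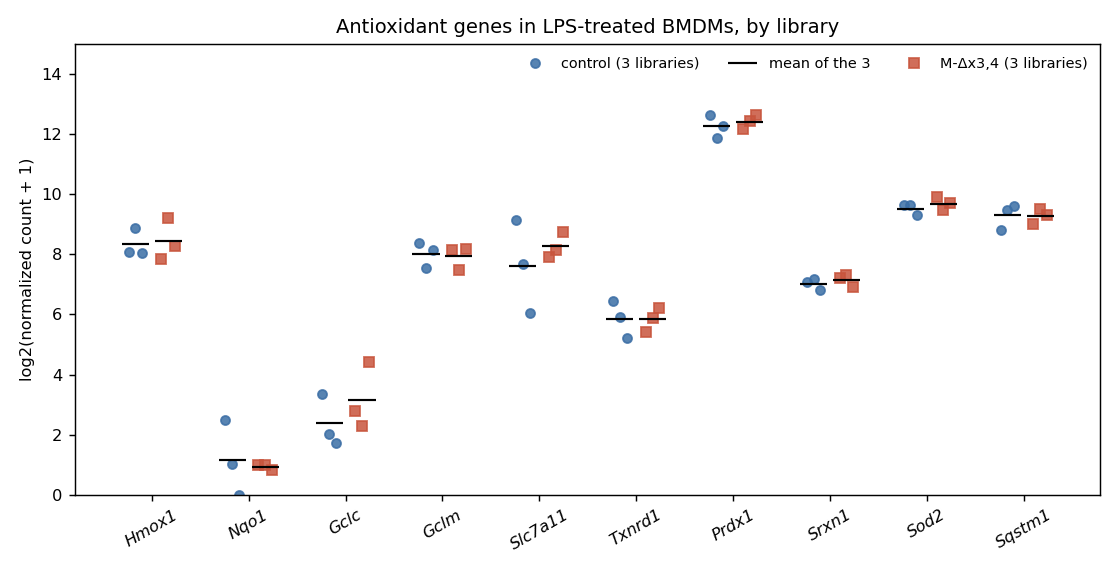
The plot shows log2(normalized count + 1) of the transcript with the highest mean count for each of the 10 genes, with 1 point per library and a line at the mean of the 3 libraries of a group. The control and M-Δx3,4 points overlap for every gene, Prdx1 is the highest, and the 3 controls of Slc7a11 spread over more of the axis than those of Prdx1, Srxn1 or Sod2.

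The sequences below show matches to the letters of 2 motifs: the core of the antioxidant response element, through which Nrf2 acts, and an AU-rich motif of the kind that AUF1 binds. The antioxidant response element core TGACNNNGC was searched on both strands of RefSeq promoter windows (GRCm38.p6, 250 bases before to 50 bases after a start). Of the 8 genes with a window, 4 held the core (Srxn1, Gclm, Prdx1 and Txnrd1), while 12.4% of 32851 windows and 14% of 27025 genes held it. Slc7a11, Nqo1, Sqstm1 and Sod2 had a window without the letters, which says only that they do not occur in that stretch. Hmox1 and Gclc had no entry. The Srxn1 match lay 28 to 36 bases after the start, and those of Gclm, Prdx1 and Txnrd1 lay before it. These matches describe the letters, and binding by Nrf2 was not measured. The match lay on the minus strand at chr2:152105542-152105570 (Srxn1), chr3:122245413-122245441 (Gclm), chr4:116685456-116685484 (Prdx1) and chr10:82859104-82859132 (Txnrd1). In the sequences, read 5′ to 3′ on the minus strand, capitals mark the 9 letters of the core.
Srxn1: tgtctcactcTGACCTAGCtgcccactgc
Gclm: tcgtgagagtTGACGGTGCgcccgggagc
Prdx1: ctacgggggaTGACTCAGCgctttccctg
Txnrd1: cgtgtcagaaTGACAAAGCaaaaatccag

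The AU-rich letters ATTTA and TATTTAT, of which the second contains the first, were searched on the sense strand of the 3′ UTRs annotated for these transcripts in GENCODE vM21 (GRCm38). ATTTA occurred in all 10 3′ UTRs, between 1 and 12 times each, and in 70.0% of the 9730 3′ UTRs of tested genes. The most were in the 3′ UTRs of Sod2, with 12 over 4963 bases, and Slc7a11, with 11 over 7364 bases. Per 1000 bases, ATTTA was found between 0.7 times in Sqstm1 and 3.24 times in Gclc, with a median of 1.21 over all 3′ UTRs searched. TATTTAT occurred in 3 of the 10 (Gclm, Txnrd1 and Sod2), against 29.7% of the 9730. A match is a description of the letters and not a site at which binding was measured. The matches shown lie at chr3:122270355-122270381 (Gclm), chr10:82897447-82897473 (Txnrd1, the first of its 2 overlapping matches) and chr17:13019538-13019564 (Sod2), all on the plus strand, with TATTTAT in capitals.
Gclm: ggccaatgttTATTTATgtgtctaacc
Txnrd1: tgttcagtttTATTTATttatttttta
Sod2: tgtgcgtgcgTATTTATatatatataa

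Normalized counts are given below for each gene in the order control 1, 2 and 3, then M-Δx3,4 1, 2 and 3. They are counts divided by a factor for the size of each library. They are not divided by the length of a region, and they are compared within a gene. Coordinates are those of the deposited regions (mm10), which for the coding transcripts printed here ran over the annotated 3′ UTR and 249 bases past its end.

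Hmox1 encodes heme oxygenase 1, the inducible enzyme that splits heme into biliverdin, carbon monoxide and iron. Its counted region, the 3′ UTR at chr8:75100020-75100838 (transcript ENSMUST00000005548), had normalized counts of 270.8, 469 and 264.5 in the controls and 230.8, 588.4 and 310.3 in the M-Δx3,4 libraries. The highest value in each group was in the library numbered 2, and the lowest of all was an M-Δx3,4 library. The means were 334.8 ± 116.3 and 376.5 ± 187.8 (SD, n = 3 each). The log2 fold change was 0.17 with a standard error of 0.39 (95% interval -0.66 to 1.0, edgeR adjusted p = 0.987).

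Nqo1, the quinone reductase often used as a readout of Nrf2 activity, was barely counted in these macrophages. Its 3′ UTR at chr8:107387976-107388818 (ENSMUST00000003947) took 4, 1 and 0 reads in the controls and 1 read in each M-Δx3,4 library. It was not tested, since its normalized count, at most 4.65, stayed under the median of 4.89 that a transcript had to exceed in at least 1 library. At this depth a difference in Nqo1 was not detectable.

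Gclc and Gclm are the catalytic and the modifier subunit of glutamate-cysteine ligase, the enzyme of the rate-limiting step of glutathione synthesis. Slc7a11, the cystine carrier of the exchanger xCT, brings in the cystine from which its substrate cysteine is made. Gclc was counted at a low level, at chr9:77793252-77794734 (ENSMUST00000034905), with 8, 3 and 2 reads in the controls and 6, 4 and 27 in the M-Δx3,4 libraries. The M-Δx3,4 library 3 alone lay above the highest control. Gclc had the largest fold change of the set, a log2 value of 1.07 with a standard error of 0.82 (95% interval -0.69 to 2.82, edgeR adjusted p = 0.984). Without that library the log2 fold change of Gclc was 0.00, and without control 1 it was 1.89, neither past the threshold.

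Slc7a11 (chr3:50364689-50372301, minus strand, ENSMUST00000029297) varied most between the controls among the genes with more than 30 reads in every library. Its normalized counts were 560.2, 204.3 and 65.0 in the controls, and 239.7, 282.6 and 430.2 in the M-Δx3,4 libraries. The highest control exceeded the lowest 8.62-fold, whereas the M-Δx3,4 libraries lay within 1.8-fold of each other and inside the range of the controls. The means were 276.5 ± 255.4 and 317.5 ± 100.0 (SD, n = 3 each), with a log2 fold change of 0.20 and a standard error of 0.54 (95% interval -0.96 to 1.36, edgeR adjusted p = 0.992). Control 1 decided the call: without it the log2 fold change of Slc7a11 was 1.23, past the threshold with an unadjusted edgeR p of 0.00946 and an adjusted p of 0.208. Calls rose over the whole table in that fit, from 1071 to 3224 transcripts. Without control 3 it was -0.25, and without M-Δx3,4 library 3 it was -0.08.

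The transcript that stands for Gclm by read count cannot be read as Gclm. The 249-base region with most of its counts, chr3:122256972-122257220 (ENSMUST00000137540, a noncoding transcript), lies in an intron of the coding Gclm transcript. It shares 248 of its bases with Gm6061, a processed pseudogene on the same strand whose sequence is 98.8% identical to Ppia, the gene for cyclophilin A, over 497 aligned positions. Its normalized counts were 327.8, 185.9 and 281.9 in the controls and 284.6, 175.8 and 288.1 in the M-Δx3,4 libraries. The log2 fold change was -0.09 (standard error 0.35, edgeR adjusted p = 0.995). The next 249 bases, counted as the end of Gm6061, ranged from 348.4 to 444.3 in the controls and from 356.4 to 433.3 in the M-Δx3,4 libraries. How many of these reads came from Ppia or its other copies cannot be told apart here.

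The last exon of the coding Gclm transcript (chr3:122266398-122270981, ENSMUST00000029769), in which the TATTTAT motif printed above lies, was counted far less. It took 19, 8 and 25 reads in the controls and 14, 24 and 46 in the M-Δx3,4 libraries. The groups overlapped, and the log2 fold change was 0.30 with a standard error of 0.54 (95% interval -0.84 to 1.44, edgeR adjusted p = 0.986). Reads at this last exon made up 4.21 to 9.33% of the reads on both regions in the controls and 4.59 to 11.7% in the M-Δx3,4 libraries (two-sided exact permutation p = 0.4, n = 3 each). Copies were searched with the last 300 bases of the annotated transcript, not with the counted region. Those of the coding Gclm transcript matched no other gene at 95% identity or more over at least 100 bases. Those of the noncoding transcript ENSMUST00000137540 matched 17 other genes. The bases counted past the end of a transcript were not searched.

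**Figure D2:**
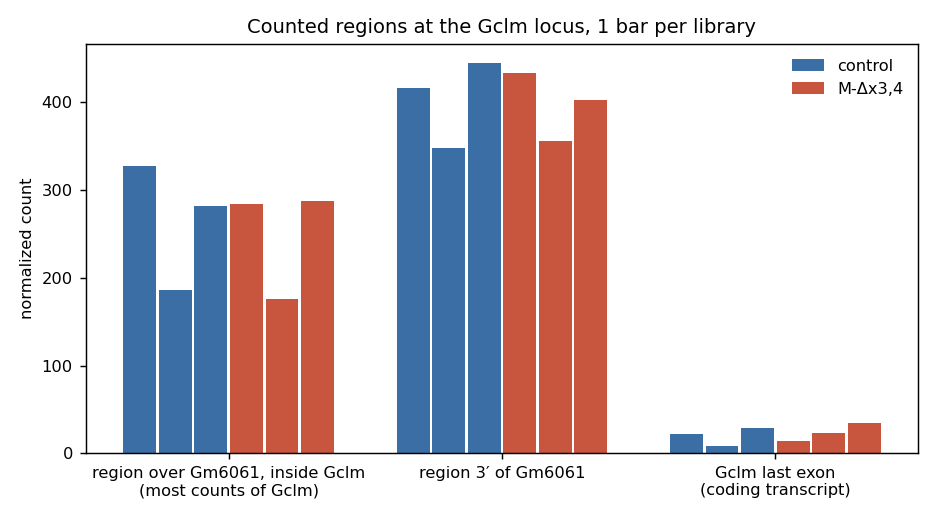
Bars give the normalized count, 1 bar per library, on 3 counted regions at the Gclm locus: the intronic region over the pseudogene Gm6061, the region just 3′ of Gm6061, and the last exon of the coding Gclm transcript. The first 2 regions carry between 175.8 and 444.3 normalized counts per library and the last exon between 8.17 and 35.2, with the groups overlapping on each.

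Txnrd1 encodes the cytosolic thioredoxin reductase, which returns thioredoxin to its reduced form with electrons from NADPH. Its 3′ UTR at chr10:82896046-82897961 (ENSMUST00000020484, with the same counts as 2 other Txnrd1 transcripts) had normalized counts of 87.2, 59.3 and 36.0 in the controls and 42.1, 58.3 and 73.4 in the M-Δx3,4 libraries. The controls spanned the whole range of the M-Δx3,4 libraries. The log2 fold change was -0.07 with a standard error of 0.42 (95% interval -0.97 to 0.83, edgeR adjusted p = 0.998).

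Prdx1, a peroxiredoxin that reduces hydrogen peroxide and is itself reduced by thioredoxin, was the most abundant gene of the set. Its region at chr4:116699257-116701071 (ENSMUST00000135573) had normalized counts of 6350.7, 3747.6 and 4941.1 in the controls and 4626.7, 5593.1 and 6354.3 in the M-Δx3,4 libraries. The highest values of the 2 groups were nearly equal, and the lowest value of all was control 2. The means, 5013.1 ± 1303.0 and 5524.7 ± 865.8 (SD, n = 3 each), gave a log2 fold change of 0.14 with a standard error of 0.30 (95% interval -0.5 to 0.78, edgeR adjusted p = 0.986). A fold change above 1.71 or below 0.709 lay outside the interval for Prdx1.

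Srxn1 encodes sulfiredoxin, which repairs peroxiredoxins that hydrogen peroxide has overoxidized. Its 3′ UTR at chr2:152109193-152111625 (ENSMUST00000041500) had normalized counts of 133.7, 145.1 and 110.2 in the controls and 147.7, 156.3 and 119.2 in the M-Δx3,4 libraries. The spread was small in both groups, with the highest library 1.32 and 1.31 times the lowest. The log2 fold change was 0.12 with a standard error of 0.34 (95% interval -0.59 to 0.84, edgeR adjusted p = 0.992).

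Sod2, the manganese superoxide dismutase of mitochondria, had normalized counts of 789.2, 789.8 and 627.6 in the controls and 952.7, 712.7 and 826.1 in the M-Δx3,4 libraries at chr17:13015172-13020383 (ENSMUST00000007012). The M-Δx3,4 libraries numbered 1 and 3 lay above the controls, and the library numbered 2 lay among them. The means were 735.5 ± 93.4 and 830.5 ± 120.1 (SD, n = 3 each), with a log2 fold change of 0.18, a standard error of 0.30 (95% interval -0.46 to 0.81) and an edgeR adjusted p of 0.985. The last 300 bases of the annotated transcript, which were searched for copies, matched 6 other genes at 95% identity or more over at least 100 bases. The bases counted past its end were not searched.

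Sqstm1 encodes p62, an autophagy receptor that also binds Keap1, so that it is both a target of Nrf2 and a part of its control. At chr11:50199117-50200789 (minus strand, ENSMUST00000015981, with the same counts as 2 other Sqstm1 transcripts) its normalized counts were 451.0, 718.3 and 786.6 in the controls and 509.6, 728.3 and 632.0 in the M-Δx3,4 libraries. The M-Δx3,4 values fell inside the control range. The log2 fold change was -0.06 with a standard error of 0.32 (95% interval -0.75 to 0.62, edgeR adjusted p = 0.998). Of the 1673 bases of this region, 999 overlap Mrnip on the opposite strand.

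**Figure D3:**
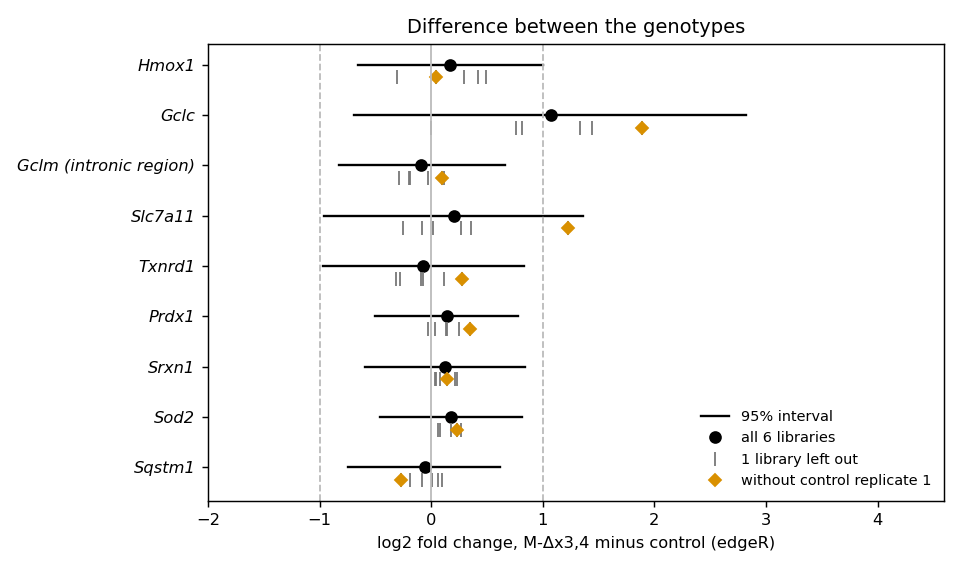
Black points give the log2 fold change, M-Δx3,4 minus control, of the 9 tested genes with a 95% interval computed from the edgeR test. Grey ticks give the value with 1 library left out, orange diamonds the value without control 1, and dashed lines mark -1 and 1. Every interval includes 0, and Slc7a11 moves from 0.20 to 1.23 without control 1.

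The genes had their highest and lowest values in different libraries. Of the 9 genes tested, 5 had their lowest value in control 3, and 3 had their highest value in control 1. The share over all genes was not computed, so these counts are not read as a trait of the set. Gclm is among the 3 by its intronic region. By the last exon of its coding transcript, Gclm was highest in M-Δx3,4 library 3 (35.2 normalized counts) and lowest in control 2 (8.17). On the log2 scale, relative to the mean of the 6 libraries, control 3 lay at -1.9 for Slc7a11, -0.64 for Txnrd1 and -0.31 for Sod2, and at 0.33 for Sqstm1. Control 1 lay at 1.19 for Slc7a11 and 0.61 for Txnrd1, and at -0.47 for Sqstm1.

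**Figure D4:**
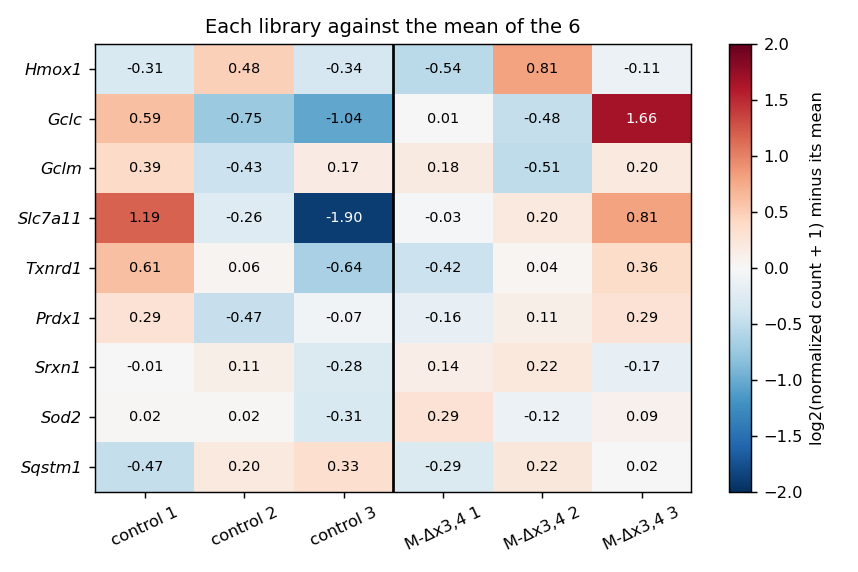
Each cell gives log2(normalized count + 1) of 1 gene in 1 library minus that gene's mean over the 6 libraries, red where higher and blue where lower, with controls left of the black line. Wide contrasts occur inside groups: Slc7a11 runs from 1.19 in control 1 to -1.9 in control 3, and Gclc from -0.48 in M-Δx3,4 library 2 to 1.66 in library 3.

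Levels were compared between genes by the TPM values of the deposited table, a level per length of the counted region and per library size. Prdx1 was the highest, at 201.0 ± 64.3 TPM in the controls and 224.7 ± 36.5 in the M-Δx3,4 libraries (SD, n = 3 each). Hmox1 (29.3 ± 9.43 and 33.5 ± 15.2 TPM) and Sqstm1 (27.8 ± 6.1 and 27.4 ± 3.89 TPM) followed and could not be ordered, since their libraries overlapped. Sod2 stood at 10.2 ± 1.74 and 11.8 ± 2.11 TPM, below every library of Hmox1 and Sqstm1. This place rests on the division by length. By normalized count the means of Sod2, on 5212 bases, were 735.5 in the controls and 830.5 in the M-Δx3,4 libraries. Those of Hmox1, on 819 bases, were 334.8 and 376.5. Sqstm1, on 1673 bases, had 651.9 and 623.3, with libraries that overlapped those of Sod2. Which order is nearer to the number of transcripts was not tested. Srxn1, Slc7a11 and Txnrd1 had control means of 3.85, 2.72 and 2.32 TPM and overlapped one another. Gclc (0.245 TPM in the controls, 0.509 in the M-Δx3,4 libraries), the last exon of Gclm (0.311 and 0.388 TPM) and Nqo1 (0.175 and 0.0857 TPM) were the lowest and also overlapped. The intronic region at Gclm had 77.5 and 74.6 TPM, which is left out of this order. The order depends on the length of the region chosen: in Prdx1 the first 265 bases held between 96.6 and 98.3% of the counts of 1815 bases.

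Other 3′ ends of the same genes gave no call either. Of the 50 transcripts, 34 had a count and 26 were tested, and 0 of these passed the threshold, against 3.3% of all transcripts tested. The groups did not overlap for 1 of the 26, a 249-base region inside the Sod2 3′ UTR (ENSMUST00000233897), against 8.88% of all transcripts. Its normalized counts were 16.3, 17.4 and 20.9 in the controls and 12.7, 13.6 and 11.5 in the M-Δx3,4 libraries, with a log2 fold change of -0.53 and an edgeR adjusted p of 0.984. The share of reads on a proximal or alternative end was computed for 5 genes, and the two-sided exact permutation p was between 0.2 and 0.5. For Sqstm1 the proximal share was 53.1 to 64.9% in the controls and 46.9 to 60.9% in the M-Δx3,4 libraries. For Txnrd1 it was 1.72 to 6.67% and 4.65 to 18.3%. The proximal end of Txnrd1 took 5, 1 and 1 reads in the controls and 2, 11 and 9 in the M-Δx3,4 libraries, so its share rests on few reads.

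Of 61 other genes of the antioxidant system, listed in 7 groups by function, 54 were tested. The median log2 fold change over the 54 was -0.13, with 20 above 0 and 33 below. No gene rose past the threshold, against 1.1% of all genes, and 1 fell, against 1.96%. The gene that fell was Mgst1, a microsomal glutathione transferase, with normalized counts of 67.4, 43.9 and 172.9 in the controls and 52.8, 37.9 and 48.1 in the M-Δx3,4 libraries. Its groups overlapped and control 3 was the only library above 67.4, with a log2 fold change of -1.03, an unadjusted edgeR p of 0.0485 and an adjusted p of 0.984. Its call was lost under TMM scaling, library totals, limma-voom and the fit with a replicate block, among others.

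Among the regulators of Nrf2, 0 of 9 passed the threshold and the median log2 fold change was 0.27. Keap1, the adaptor that marks Nrf2 for degradation, had means of 729.8 ± 374.6 and 666.3 ± 142.2 normalized counts in control and M-Δx3,4 (SD, n = 3 each), and its region lies opposite the antisense gene Gm16754. Mafg, a small Maf partner of Nrf2, had 301.1 ± 65.0 and 278.2 ± 44.7, with 373 bases of its region shared with Sirt7 on the same strand. Nfe2l2 itself, named here after its values were seen, had 132.5, 93.0 and 65.0 in the controls and 91.0, 98.1 and 161.2 in the M-Δx3,4 libraries. Its log2 fold change was 0.27 (standard error 0.39, edgeR adjusted p = 0.984).

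Among the glutathione genes, 11 of 14 were tested and the median was -0.31. Gpx1, a glutathione peroxidase, had 1665.3 ± 658.6 and 1341.1 ± 269.7 normalized counts. Glrx, a glutaredoxin, had 655.6 ± 50.4 and 852.6 ± 190.2. Gsta4, Mgst3 and Chac1 had too few counts.

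The 10 thioredoxin and peroxiredoxin genes had a median of -0.15 and none passed. Prdx5, a peroxiredoxin, had 3480.4 ± 529.9 and 2773.0 ± 290.0 normalized counts, and Txn1, the cytosolic thioredoxin, had 1195.4 ± 414.4 and 1160.8 ± 185.8. Of the other superoxide dismutase and catalase genes, 3 of 4 were tested, none passed, and the median was 0.11. Sod1, the copper-zinc enzyme, had 1394.6 ± 676.2 and 1268.6 ± 281.6 normalized counts on a region that lies opposite Scaf4, and Sod3 had too few counts.

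The 6 genes of NADPH supply had a median of -0.18 with none past the threshold. Pgd, of the pentose phosphate pathway, had 3369.1 ± 478.1 and 2761.1 ± 367.1 normalized counts, and Taldo1, of the same pathway, had 1041.6 ± 229.2 and 923.3 ± 197.7. Of the other genes for heme, quinones and further Nrf2 targets, 7 of 10 were tested, none passed and the median was -0.08. Fth1 and Ftl1, the ferritin chains that store iron, had 7500.9 ± 1012.8 and 8182.0 ± 296.2 for Fth1 and 7638.1 ± 3933.7 and 5219.6 ± 432.8 for Ftl1. Slc40a1, Osgin1 and Ephx1 had too few counts. The 8 enzymes that make oxidants or related products had a median of -0.14 with none past the threshold. Acod1, which makes itaconate, had 2861.2 ± 978.2 and 2594.0 ± 490.3, and Ncf1, a subunit of the phagocyte NADPH oxidase, had 1850.2 ± 441.0 and 2549.8 ± 562.8 on a region that lies opposite Gtf2ird2.

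The groups did not overlap for 5 of the 54 genes, beside 8.44% of all genes. Among them, Maff, Prdx3 and Cat were higher in all 3 M-Δx3,4 libraries, and Cbr1 was lower. Cat was also due for naming by its level, whereas Maff, Prdx3 and Cbr1 are named after their values were seen. Cat, the gene for catalase, had 154.6, 160.4 and 182.1 normalized counts in the controls and 223.0, 239.8 and 223.1 in the M-Δx3,4 libraries, giving 0.46 as the log2 fold change (standard error 0.31, edgeR adjusted p = 0.984). Its two-sided exact permutation p was 0.1, the smallest possible with n = 3 against 3.

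**Figure D5:**
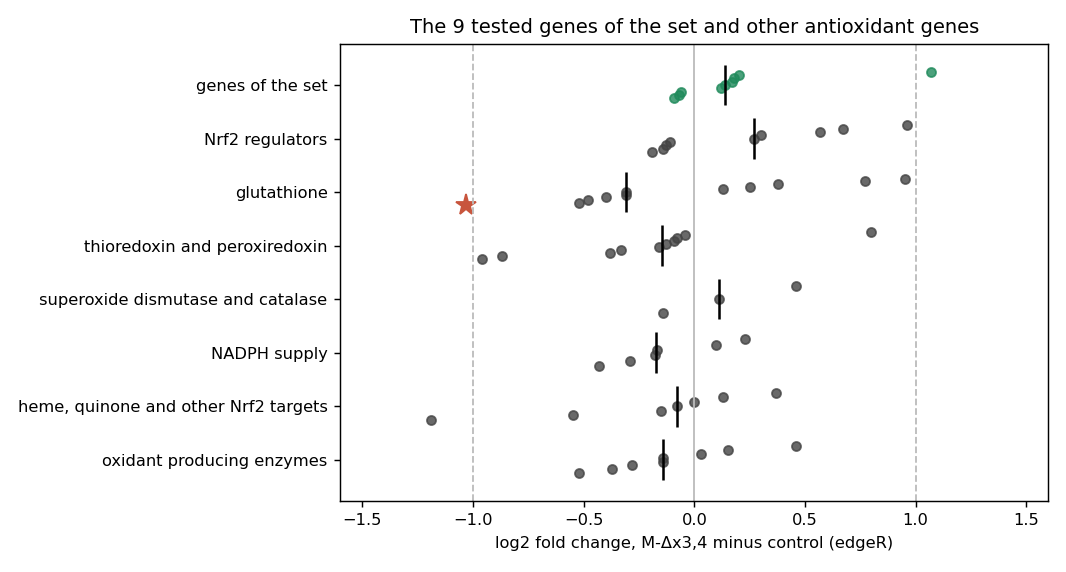
Each point is the log2 fold change, M-Δx3,4 minus control, of 1 tested gene, in the top row for the 9 genes of the set and below for 54 other genes in 7 functional groups, and black lines give the median of each row. The star marks Mgst1 at -1.03, the one gene past the threshold, and dashed lines mark -1 and 1. Points of all rows lie on both sides of 0.

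For the 3 most abundant genes by normalized count, the genes with the most similar profile over the 6 libraries were sought among 4723 genes with a mean of at least 50 normalized counts, by Pearson's r on log2(normalized count + 1). Prdx1 was most like Sgcb (r = 0.985), Slc26a2 (0.98) and Mgat2 (0.973). Sod2 was most like Frmd4b (0.978), Lrp4 (0.972) and Cyb5b (0.97). Sqstm1 was most like Tpi1 (0.989), Rapsn (0.985) and Rhoa (0.984). These values are the highest of 4723 over 6 libraries that share their scaling, and none of these 9 genes is in the lists of antioxidant genes used here.

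Facts of the libraries bear on how these values are read. The counts summed over transcripts, in which a read can enter several transcripts of a gene, ranged from 5852374 to 6666525 in the controls and from 6627536 to 9008878 in the M-Δx3,4 libraries. The Hnrnpd transcript for the p37 isoform (ENSMUST00000072750), whose counted regions lie at the 3′ end and do not show whether exons 3 and 4 are present, had 177.8, 104.2 and 69.6 normalized counts in the controls and 52.8, 12.6 and 16.0 in the M-Δx3,4 libraries (log2 fold change -2.11). The transcript for p45 overlapped between the groups, at -0.57. Lyz2, the locus that holds Cre, was lower in the M-Δx3,4 libraries, 1064.0 ± 244.7 against 1993.6 ± 206.4 (SD, n = 3 each). All 7 macrophage markers were counted, with sums of 5375.0 to 6454.1 in the controls and 4784.2 to 6261.2 in the M-Δx3,4 libraries. All 6 B cell markers had counts, and their sum was 299.9 to 358.5 in the controls and 141.8 to 164.3 in the M-Δx3,4 libraries. Neutrophil markers summed to 377.0 to 688.1 and 472.3 to 709.8 with Elane at 0, and those of dendritic cells, T and NK cells, fibroblasts and erythroid cells stayed at or below 44.0 in every library, with Cd209a, Cd3e, Ncr1 and Nkg7 at 0. The part of the B cell signal in the values above was not tested.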

How the data were processed

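RNA of 3 control and 3 M-Δx3,4 BMDM cultures was sequenced from the 3′ ends (QuantSeq FWD). Per the study's methods and the submitters' notes, the authors aligned reads to mm10 with TopHat2 2.1.1 and Bowtie2 and counted them on 3′ UTR regions of Ensembl transcripts with metaseqR2. The deposited table holds raw counts, which were tested here, and TPM values that the authors computed per counted length, which were used only to order levels. Counts were summed per transcript, scaled by the median of ratios and tested with edgeR 4.0.16 in R 4.3.3 (quasi-likelihood, genotype only) over 32475 transcripts with more than the median normalized count of 4.89 in at least 1 library. P-values were adjusted over all of them by Benjamini-Hochberg. The statistics were tested on simulated data first. 18 per-sample columns were not used, nor were the authors' own fold changes and p-values.

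The genes and lists were chosen with earlier results of these data known. Named were the 10 genes, per list the genes past the threshold and the 2 with the highest mean, and the Hnrnpd isoforms. AU-rich letters were searched in annotated 3′ UTRs, not in the counted regions with their added bases. Alternatives were another scaling, filter, test, unit or threshold, a replicate block, and each library left out. Replicate numbers were not taken to pair the libraries. Results for some listed genes are not reported here.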

Additional observations from a re-analysis of the deposited data

How the results depend on the processing

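The count of set genes past the threshold was 0 under every alternative except without control 1, where Slc7a11 passed (range 0 to 1 with 1 library left out), and the count with groups that do not overlap ranged from 0 to 2 of 9, where 2 libraries against 3 did not overlap for 15.1 to 32.8% of all genes (32.8% without control 1, which gave the 2). Mgst1 set the count of 1 among the other antioxidant genes, which was 0 with TMM factors, library totals, limma-voom, filterByExpr, at least 10 counts in every library, p under 0.01 and the replicate block, and ranged from 0 to 6 with 1 library left out (6 without control 1, 2 without control 2). The calls without control 1 stand beside 3224 transcripts past the threshold in the same fit, and the share of all transcripts was not computed. Transcripts past the threshold numbered 1071, but 706 with DESeq2 1.42.0, 1715 with no filter, 471 with filterByExpr, 265 with at least 10 counts, 365 with 1 transcript per gene, 213 with p under 0.01, 685 with the replicate block and 710 to 3224 with 1 library left out. The p under 0.01 is a stricter cut of the same fit. The filters and the use of 1 transcript per gene also change how many transcripts are tested. In the reported fit, 3.07% of 11872 genes passed by 1 transcript each, against 3.3% of all transcripts. The cause of the other changes was not tested. With 1 library left out the log2 fold change crossed 0 for Gclm (-0.29 to 0.11), Slc7a11 (-0.25 to 1.23), Txnrd1 (-0.32 to 0.28), Prdx1 (-0.03 to 0.35), Sqstm1 (-0.27 to 0.10) and Hmox1 (-0.31 to 0.49). Gclm was 0.30 by its coding transcript, an alternative chosen after the data were seen. Of the other values of the set genes under an alternative, 139 did not change sign or their side of the threshold, Gclc at 0.00 without M-Δx3,4 library 3 among them. Same-numbered libraries deviated together for number 2 only (r = 0.537, against -0.213 and -0.309), while control 1 correlated best with M-Δx3,4 library 3 (0.542) and control 3 with library 1 (0.28), so the numbers were not taken to pair the libraries. With the replicate block, 0 set genes passed. That block joins libraries by the same numbers, so its result does not bear on other pairings, which were not fitted. Depth limits what can be said of Nqo1 and Gclc.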
